A study of Mus musculus with 12 samples.

Results

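Unstimulated bone-marrow-derived macrophages of Gpr31b knockout mice (KO M0) were compared with those of wild-type mice (WT M0), in 3 libraries of each genotype. All rows of the deposited count table with enough counts were taken: 2333 of 24552 rows were tested, and 10012 rows held a count in at least 1 of the 6 M0 libraries. The study as a whole had 12 libraries in 4 groups, since macrophages of both genotypes had also received LPS and IFN-γ (M1). M1 libraries enter here through the shared estimate of spread and where a genotype effect is set against the same effect in M1. M0 cells of both genotypes were cultured from bone marrow and left without LPS or IFN-γ. The labels name the knockout only as Gpr31b KO. They give no age, sex or strain, and they describe neither the deleted part of the gene nor whether libraries came from separate mice, so every p-value measures the spread between these libraries, which may be technical.

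GPR31 is a G protein-coupled receptor of the Gi-coupled kind for 12-HETE, a fatty acid that the 12-lipoxygenases make from arachidonic acid. Macrophages grown from bone marrow precursors depend on CSF1 and its receptor Csf1r, and in the resting state they hold many lysosomal hydrolases, scavenger receptors and lipid-handling proteins. The comparison asked what loss of the receptor changes in such cells before any inflammatory stimulus.

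Library totals were 396676 to 471467 counts in WT M0 and 410131 to 432092 in KO M0. These are low depths, and they set how firmly any row can be described. Totals, rows detected, the share of the 10 highest rows and the share of counts in rows with an opposite-strand exon differed between the genotypes with p from 0.4 to 0.7 (exact permutation test, two-sided, where 0.1 is the smallest p that 3 against 3 allows). Correlations of log2 CPM were 0.947 to 0.958 within a genotype and 0.942 to 0.957 across genotypes. Counts lay mostly in rows whose gene has an exon of another gene on the opposite strand. Such rows held 91.1% of the matched M0 counts, and of the 67 rows that averaged at least 1000 counts 65 were of this kind. Values are therefore given by row, with the opposite-strand gene named, since either gene of such a pair may be the source of the counts. The libraries mark the strand, and the strand option used in counting is not given in the sources used here. Had reads been assigned to the opposite strand, an own row would hold antisense reads and would not measure its gene, also where no exon lies opposite. This touches every value of an own row given here, Perm1, Cd163 and the marker genes included, and was not tested. In bulk RNA, fewer cells of a type and less RNA per cell cannot be told apart.

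The M0 libraries were not alike in every respect. The row of Tsix, the antisense RNA of the X-inactivation locus, held 1, 855 and 1 counts in WT M0 and 2, 1150 and 0 in KO M0. Library 2 of each genotype thus stood apart from the others, and the same was true in M1, with 539 counts in WT M1 library 2, 710 in KO M1 library 2 and 0 or 1 elsewhere. Xist itself, the X-inactivation RNA that lies opposite Tsix and is made from an inactive X chromosome, was at 0 in its own row in all 12 libraries. The Y-linked rows Ddx3y and Kdm5d held 4 to 6 counts in WT M0 and 2 or 0 in KO M0, none of them in a library numbered 2, and Eif2s3y and Uty were at 0. The labels give no sex, and each genotype had 1 such M0 library. The 2 overlapping exons are shown over 60 bases at chrX:103482234-103482293 of GRCm38, since reads of either strand there differ only by being the reverse complement. Both runs read 5′ to 3′ and come from GENCODE M21.
Tsix (plus strand): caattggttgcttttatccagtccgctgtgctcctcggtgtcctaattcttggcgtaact
Xist (minus strand): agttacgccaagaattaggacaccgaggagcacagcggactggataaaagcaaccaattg

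A second library difference concerned KO M0 library 3. Lysosome genes whose own rows have no opposite-strand exon, 31 in all, held 683, 565 and 651 counts in WT M0 and 552, 528 and 296 in KO M0. That is 0.140% to 0.145% of the library in WT M0 and 0.128%, 0.125% and 0.0722% in KO M0. The same library was lowest for macrophage identity genes, at 0.0585% over 21 rows against 0.0845% to 0.112% in the other 5, and for cytosolic ribosomal proteins, at 0.0266% over 32 rows against 0.0324% to 0.0419%. For lysosome genes KO M0 libraries 1 and 2 were below every WT library too. KO M0 library 3 was the lowest library in 6 of the 15 lists that held 100 counts or more in such rows. It was not alone in this. WT M0 library 3 was lowest for G protein signalling, scavenging, antigen presentation, cell cycle, cholesterol and lipid handling, and glycolysis and hypoxia. What this does to low rows was not tested beyond leaving the library out.

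**Figure D1:**
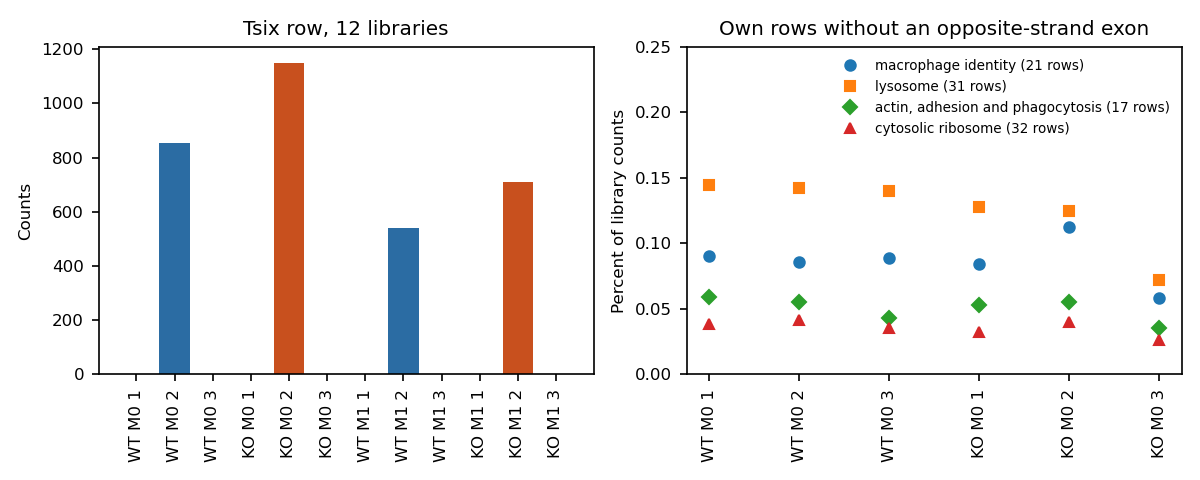
Left, counts of the Tsix row (vertical axis) in each of the 12 libraries, with WT in blue and KO in orange; library 2 of each group holds 539 to 1150 counts and every other library 2 or fewer. Right, percent of each M0 library's counts (vertical axis) in own rows that have no opposite-strand exon, for 4 gene lists. KO M0 library 3 is lowest in all 4, and WT M0 library 3 was lowest in other lists not shown.

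The targeted gene could not be measured in M0. Gpr31b (chromosome 17, 13051014 to 13052296, minus strand, GRCm38) held 0 counts in all 6 libraries, which allows up to 2.25 CPM over the WT M0 group and 2.37 CPM over KO M0, taken at 3 counts and covering counting error only. WT cells were also at 0, so the row does not check the genotypes in M0. Genes of 12-lipoxygenases, which make the ligand, and other genes of arachidonic acid metabolism also held few or no counts. Alox12, the platelet-type 12-lipoxygenase, held 4 counts in each genotype, and Alox15, Alox12e and Alox5 held 0. Alox5ap, which presents arachidonic acid to 5-lipoxygenase, held 1 count in WT and 2 in KO. Ptgs1, the constitutive cyclooxygenase, held 26 counts in WT and 37 in KO. Of 29 rows for this lipid pathway, 13 were at 0 in M0, 4 were tested and 0 were called. The row of most counts beside the pathway was 1700071M16Rik, opposite Pla2g7, the platelet-activating factor hydrolase. It held 696, 808 and 1476 CPM in WT and 899.9, 564 and 745 in KO. The groups overlapped, and the log2 fold change was -0.43 (95% interval -1.16 to 0.29).

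Unstimulated macrophages held a small set of rows at very high level. The highest row took 4.18% of all M0 counts, the 10 highest 21.3%, the 20 highest 30.2% and the 100 highest 55.1%. All 20 of the highest rows had an opposite-strand exon, and the genes there were mostly ones that macrophages use in lysosomes, membranes and redox control. Levels are in CPM, that is, counts per library scaled with TMM factors, so longer rows collect more, and the order below is by counts and not per length.

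The highest row was Ctsa, for the lysosomal carboxypeptidase cathepsin A, with a mean of 35344 CPM. It lies opposite Pltp, which transfers phospholipids between lipoproteins. Gm15441, an antisense gene opposite Txnip, followed at 29512 CPM, and Fdft1, for squalene synthase, opposite the lysosomal protease gene Ctsb, at 28329 CPM. Tmem132a, opposite the lysosomal peptide transporter gene Slc15a3, held 19756 CPM, and Snx22, opposite the cyclophilin gene Ppib, 13614 CPM. Per kilobase of exon the order changed among the 19 rows whose exon length was at hand: Gm15441 came first at 17609 CPM per kb, 0610039K10Rik, opposite the membrane protein gene Serinc3, next at 9018, and Ctsa after it at 7496.

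The genes opposite these rows had fewer counts in their own rows, in some cases almost none. Over the 6 M0 libraries the Gm15441 row held 90489 counts and the Txnip row 23. Snx22 held 41992 counts and Ppib 4. The smallest ratio was that of Ctsa to Pltp, 108777 counts against 13505, or 8.05 to 1. The Pltp row was itself high, at a mean of 4378 CPM.

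Txnip encodes the thioredoxin-interacting protein, which binds thioredoxin, restrains glucose uptake and responds to glucose. Its coding exons and Gm15441 share sequence on opposite strands, shown here over 60 bases at chr3:96559730-96559789 of GRCm38 because this overlap can place reads of one gene in the other's row. Both runs come from GENCODE M21.
Gm15441 (minus strand): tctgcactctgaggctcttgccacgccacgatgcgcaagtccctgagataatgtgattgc
Txnip (plus strand): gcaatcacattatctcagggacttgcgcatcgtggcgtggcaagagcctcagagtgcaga

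The start of Txnip carries a carbohydrate response element, the site through which glucose is known to act by the factors MondoA and ChREBP. The 250 bases before its RefSeq start (GRCm38.p6, chr3:96557707-96557956, plus strand) hold the motif CACGAG at 2 places, 85 and 74 bases before the start, in capitals.
Txnip promoter: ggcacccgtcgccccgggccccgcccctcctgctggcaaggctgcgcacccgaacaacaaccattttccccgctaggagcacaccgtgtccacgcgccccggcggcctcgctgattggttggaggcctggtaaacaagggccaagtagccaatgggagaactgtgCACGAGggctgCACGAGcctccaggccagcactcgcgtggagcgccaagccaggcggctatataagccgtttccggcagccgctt
Of 32851 RefSeq promoters of that length, 5.37% held CACGAG at least once on either strand and 0.262% held it at least 2 times. The match is a description of the sequence and says nothing about binding in these cells.

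**Figure D2:**
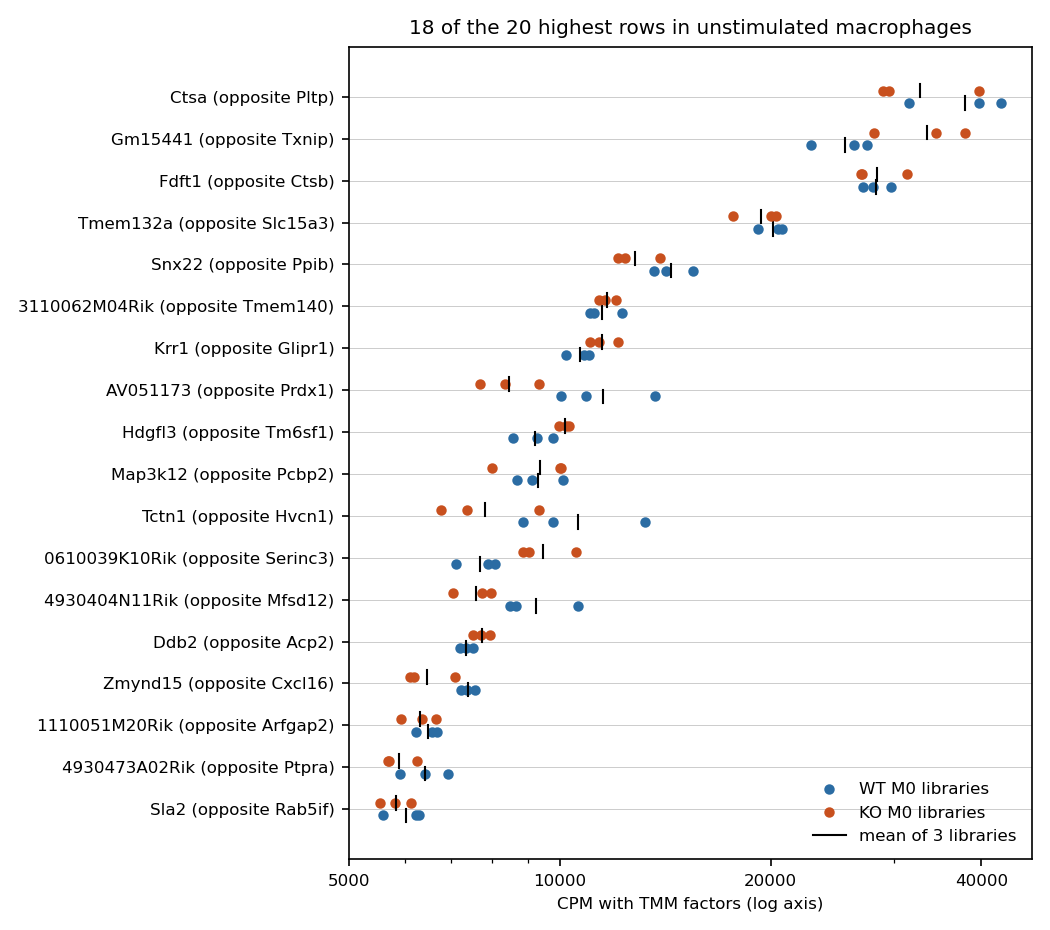
CPM of 18 of the 20 highest rows in M0 (horizontal log axis) for each of the 3 WT libraries (blue) and 3 KO libraries (orange), with the mean as a vertical bar; the opposite-strand gene stands in brackets. The rows run from 35344 CPM for Ctsa to 5932 CPM for Sla2, and the genotypes overlap in 10 of the 18 shown.

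One row was called between the genotypes. At an adjusted p under 0.05 by edgeR's quasi-likelihood test with Benjamini-Hochberg adjustment over 2333 rows, 1 row was higher in KO M0 (0.0429%) and 0 were lower. An unadjusted p under 0.05 was reached by 151 rows (6.47%), 80 higher (3.43%) and 71 lower (3.04%), where 116.65 would do so by chance. The 3 KO libraries lay wholly above or below the 3 WT libraries in 278 rows (11.9%), 152 above (6.52%) and 126 below (5.40%). With 3 against 3 libraries and no ties, a share of 0.1 of rows would do so by chance. DESeq2 and limma-voom called 0 rows, with 142 and 178 at an unadjusted p under 0.05. The median log2 fold change over all tested rows was 0.01.

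How large an effect the data leave room for depended on the level of the row. For each row with a count in both groups, 2264 rows, a 95% interval of the log2 fold change was taken, and its larger end in either direction was read as a bound. Of the 169 rows at 1000 CPM or more, which held 65.3% of the M0 counts, 168 (99.4%) had the interval within 2-fold and 159 (94.1%) within 1.5-fold, with a median bound of 1.25-fold. From 100 to under 1000 CPM, 643 of 690 rows (93.2%) lay within 2-fold and 371 (53.8%) within 1.5-fold, and the median bound was 1.48-fold. From 10 to under 100 CPM it was 156 of 1246 rows (12.5%) within 2-fold, with a median bound of 2.89-fold. Under 10 CPM 0 of 228 rows were bounded within 2-fold, and 69 of them had no interval. Over all tested rows 967 (41.4%) were bounded within 2-fold and 533 (22.8%) within 1.5-fold. Counting error and library spread are the only errors in these bounds.

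The row at 1000 CPM or more that was not bounded within 2-fold was Cd163, a haemoglobin scavenger receptor of resting macrophages. Its own row, which has no opposite-strand exon, held 2081, 1663 and 1163 CPM in WT and 1829, 2899 and 2977 in KO. KO libraries 2 and 3 were the highest and KO library 1 lay among the WT libraries. The log2 fold change was 0.65 (interval 0.08 to 1.22, adjusted p = 0.692), and the interval ran from 1.06-fold to 2.33-fold higher in KO. Tsix, at a mean of 685 CPM, had the widest interval of all rows, with a bound of 93.4-fold, because library 2 alone carried its counts.

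**Figure D3:**
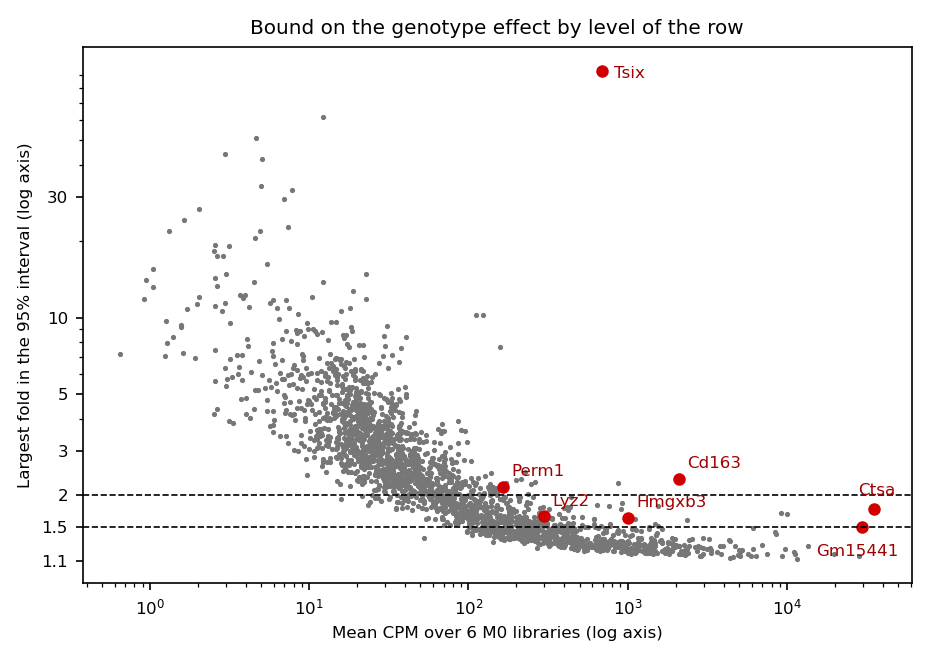
Largest fold inside the 95% interval of the KO M0 against WT M0 effect (vertical log axis) against the mean CPM over the 6 M0 libraries (horizontal log axis), 1 point per row with an interval; dashed lines mark 2-fold and 1.5-fold. The bound narrows from a median of 2.89-fold at 10 to under 100 CPM to 1.25-fold at 1000 CPM and over, with Tsix and Cd163 above the other rows of their level.

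Among the 20 highest rows 0 were called, all 20 were bounded within 2-fold and 16 within 1.5-fold. The bounds ran from 1.12-fold to 1.76-fold, with a median of 1.23-fold. The intervals of 13 rows included 0, 2 lay above it and 5 below, and 8 rows had no overlap between the genotypes. Over all rows, 140 of 2264 intervals (6.18%) lay clear of 0, 73 above (3.22%) and 67 below (2.96%), and 11.9% of tested rows had no overlap. Over the 169 rows at 1000 CPM or more, 9 intervals lay above 0 and 13 below, 32 rows had no overlap, and log2 fold changes ran from -0.45 to 0.65 with a median of -0.01.

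Rows beside lysosomal genes were among the most closely bounded. Fdft1, opposite Ctsb, held 27063, 27991 and 29684 CPM in WT and 26899, 31298 and 27040 in KO, with a log2 fold change of 0.01 (interval -0.19 to 0.21). All 3 WT libraries lay within the range of the KO libraries. Ddb2, a DNA damage sensor gene opposite the lysosomal acid phosphatase gene Acp2, held 7192, 7507 and 7353 CPM in WT and 7715, 7522 and 7956 in KO, a difference of 0.07 (interval -0.09 to 0.24). Tmem132a, opposite Slc15a3, was bounded within 1.18-fold.

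Ctsa, the highest row, was also the least closely bounded of the 20. It held 31519, 39721 and 42672 CPM in WT and 39650, 29561 and 28940 in KO, so that KO library 1 lay with the WT libraries. Its log2 fold change was -0.21 (interval -0.82 to 0.39). Pltp, the gene opposite, had 4537, 4694 and 4909 CPM in its own row in WT and 4211, 3986 and 3931 in KO. There the genotypes did not overlap, and the effect was -0.22 (interval -0.40 to -0.04, adjusted p = 0.640, not called).

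The narrowest interval of all rows was that of 3110062M04Rik (Cyren), opposite Tmem140, an interferon-induced membrane protein gene. It held 11192, 11043 and 12271 CPM in WT and 11597, 12044 and 11393 in KO, and was bounded within 1.12-fold. Sla2, Krr1 and Snx22 were among the other rows of narrowest interval. Sla2, an adaptor gene opposite Rab5if, was bounded within 1.15-fold. Krr1, a ribosome assembly gene opposite Glipr1, was bounded within 1.20-fold, with all 3 KO libraries above the WT libraries at a log2 fold change of 0.11. Hdgfl3, opposite Tm6sf1, Map3k12, opposite the RNA-binding protein gene Pcbp2, 1110051M20Rik, opposite the coat protein regulator gene Arfgap2, and 4930473A02Rik, opposite the phosphatase gene Ptpra, were all bounded within 1.23-fold.

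Of the high rows, 2 that lie opposite redox genes had intervals clear of 0, and neither row was called. Gm15441, opposite Txnip, held 26339, 27439 and 22821 CPM in WT and 28142, 37861 and 34473 in KO. Every KO library lay above every WT library, KO library 1 by the least. The log2 fold change was 0.39 with a standard error of 0.10 (interval 0.20 to 0.59, adjusted p = 0.260), or 31.2% higher in KO. In M1 the same row held 15719 CPM in WT and 15496 in KO, a log2 fold change of -0.02, and the difference between the states had an unadjusted p of 0.005 and an adjusted p of 0.605. AV051173, opposite the peroxiredoxin gene Prdx1, held 10029, 10909 and 13677 CPM in WT and 9338, 8358 and 7688 in KO. All KO libraries were lower, at -0.45 (interval -0.76 to -0.13, adjusted p = 0.587). The Txnip row itself had too few counts to be tested. Prdx1 in its own row held 40 counts in WT and 15 in KO.

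The values of 5 other high rows with an interval clear of 0 follow. 0610039K10Rik, opposite Serinc3, was at 8081, 7904 and 7106 CPM in WT and at 8856, 10534 and 9033 in KO, a log2 fold change of 0.30 (interval 0.11 to 0.49, adjusted p = 0.409). Tctn1, a gene of the ciliary transition zone opposite the proton channel gene Hvcn1, held 9765, 8867 and 13225 CPM in WT and 9336, 6758 and 7366 in KO. WT library 3 was far above the rest, the groups overlapped, and the effect was -0.44 (interval -0.76 to -0.12, adjusted p = 0.587). 4930404N11Rik, opposite the lysosomal cysteine transporter gene Mfsd12, was at -0.29 (interval -0.52 to -0.06), and Zmynd15, opposite Cxcl16, a membrane-bound chemokine and scavenger receptor, at -0.19 (interval -0.35 to -0.03). Snx22, opposite Ppib, was at -0.17 (interval -0.33 to -0.02).

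**Figure D4:**
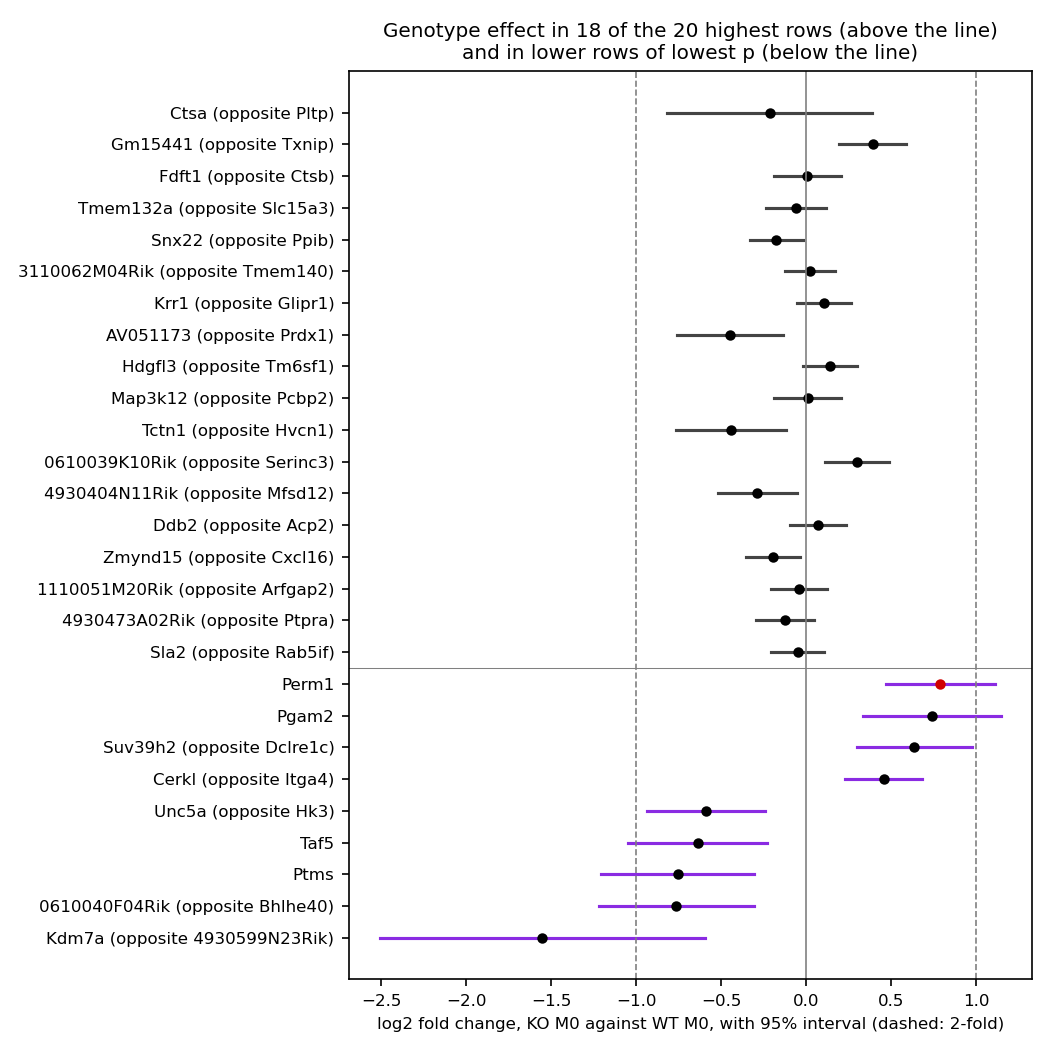
Log2 fold change of KO M0 against WT M0 (horizontal axis) with its 95% interval for 18 of the 20 highest rows, in order of level, and below the line for the lower rows of lowest p in each direction; dashed lines mark 2-fold. All 18 intervals of the high rows lie within 2-fold, and only Perm1 (red point) was called.

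The called row was Perm1, a regulator of mitochondrial and contractile genes known from mouse skeletal and heart muscle (chromosome 4, 156215868 to 156221307, plus strand). It held 122, 109 and 129 CPM in WT M0 and 239, 185 and 201 in KO M0, with all KO libraries above all WT libraries. These are 190 counts against 314. The log2 fold change was 0.79 with a standard error of 0.16 (interval 0.47 to 1.11, adjusted p = 0.0479 by edgeR's quasi-likelihood test), a rise of 1.73-fold. The interval spans 1.38-fold to 2.16-fold. No exon of another gene lies opposite Perm1, but it ends 149 bases from the 3′ end of Plekhn1, which runs toward it on the other strand. Plekhn1 had 0 counts in M0 in its own row. The row was on average 1608 CPM in WT M1 and 1949 in KO M1, a log2 fold change of 0.27 there, and the difference between the states was not called (unadjusted p = 0.017, adjusted p = 0.627). The call sat at the threshold. It held in 2 of 17 other settings, and its adjusted p reached 0.415 with limma-voom and was 0.0518 with a term for the libraries that carry Tsix.

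Below Perm1 no row passed the test, and the rows of lowest p are given as values. Cerkl, a ceramide kinase-like gene opposite the integrin gene Itga4, held 2055, 2168 and 1703 CPM in WT and 2392, 3062 and 2676 in KO, a log2 fold change of 0.46 (interval 0.23 to 0.68, adjusted p = 0.260). Itga4 in its own row was at -0.02 (interval -0.76 to 0.72). Suv39h2, for a histone methyltransferase, opposite the DNA repair nuclease gene Dclre1c, was at 0.64 (interval 0.30 to 0.97). Pgam2, the muscle phosphoglycerate mutase gene, whose row ends 678 bases from the 3′ end of Dbnl, was at 0.74 (interval 0.34 to 1.15). The 3 KO libraries lay above the 3 WT libraries in each of these 3 rows, as in 152 of all 2333 tested rows (6.52%). The 3 were picked by low p, which favours such separation, so it is no further evidence.

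The rows of lowest p in the other direction were Unc5a, Ptms, 0610040F04Rik, Kdm7a and Taf5, with adjusted p from 0.385 to 0.433. Unc5a, a netrin receptor gene opposite the hexokinase gene Hk3, held 105, 109 and 131 CPM in WT and 84.3, 67.5 and 77.3 in KO, a log2 fold change of -0.59 (interval -0.93 to -0.24). Ptms, for parathymosin, was at -0.76 (interval -1.21 to -0.31). Taf5, a TFIID subunit gene whose row meets the 3′ end of Usmg5 on the other strand, was at -0.64 (interval -1.05 to -0.23). Kdm7a, for a histone demethylase, lies opposite 4930599N23Rik, whose row held a mean of 1205 CPM in M0. The Kdm7a row had few counts, with 24.5, 23.4 and 46.8 CPM in WT and 5.88, 11.9 and 14.2 in KO. In all 5 rows every KO library was below every WT library, as in 126 of all 2333 tested rows (5.40%). The 5 too were picked by low p, so this separation is no further evidence.

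**Figure D5:**
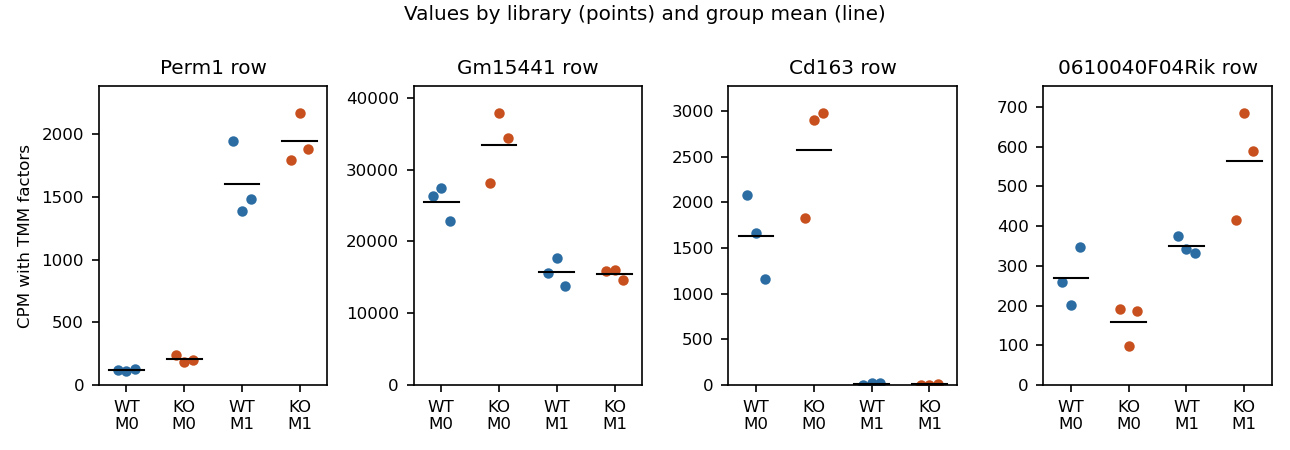
CPM (vertical axes, each from 0) of the Perm1, Gm15441, Cd163 and 0610040F04Rik rows in each library, with WT in blue, KO in orange and the group mean as a line, in M0 and M1. In M0 the genotypes do not overlap for Perm1, Gm15441 and 0610040F04Rik and overlap for Cd163; Cd163 is at 15 CPM or less on average in M1.

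Genes that define the cell were low in their own rows in both genotypes. None of 25 macrophage identity rows was at 0, 16 were tested and 0 were called, with a median log2 fold change of -0.16 against 0.01 over all tested rows. Lyz2, the macrophage lysozyme, held 317, 260.0 and 279 CPM in WT and 318, 429 and 185 in KO. Mpeg1, a pore-forming protein of phagocytes, was at -0.07 (interval -0.61 to 0.47), and Adgre1, the gene of the F4/80 antigen, held 22 counts in WT and 37 in KO. Csf1r, the receptor for CSF1, held 121 and 149 counts. The row opposite it, Hmgxb3, held far more, with 887, 938 and 764 CPM in WT and 1006, 1141 and 1260 in KO. No KO library overlapped WT there, at a log2 fold change of 0.40 (interval 0.08 to 0.71, adjusted p = 0.624).

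An unadjusted p under 0.05 was reached by 3 of the 16 tested identity rows, all lower in KO and all with few counts, where 3.04% of all tested rows were lower at that p. Cd68, a lysosomal glycoprotein, held 79 counts in WT and 26 in KO. Itgam, the integrin of CD11b, held 46 and 19, and Lgals3, for galectin-3, 73 and 22. Itgam and Lgals3 were chosen for mention after their values were seen. KO M0 library 3, the library low in such rows, held 4, 4 and 2 of those KO counts. With that library the log2 fold change was -1.50 for Cd68, -1.21 for Itgam and -1.68 for Lgals3. Without it the rows stayed lower in KO, at -1.22 for Cd68 (unadjusted p = 0.0951), -1.02 for Itgam (0.103) and -1.29 for Lgals3 (0.106). Over all gene lists, 18 own rows had an unadjusted p under 0.05, and 12 of them also had one without KO M0 library 3. Over all tested rows it was 151 of 2333 (6.47%), and 118 of 2597 without that library. The 18 were picked by p and the 2 fits share the other libraries, so the 12 are no separate check. Some held almost no counts, such as Irf7 with 0 in WT and 12 in KO, all in library 2.

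Own rows of lysosome genes without an opposite-strand exon held a smaller summed share in all 3 KO libraries than in any WT library, as given above. Over all 42 own rows the genotypes overlapped, at 4.07% to 5.13% of counts in WT and 3.63% to 4.92% in KO. That sum is mostly 1 row, Ctsa, which lies opposite Pltp. Ctsa held 59433 of the 62615 counts in WT and 49344 of the 52044 in KO, so the overlap does not describe the other lysosome rows. Rows opposite a lysosome gene overlapped too, at 6.22% to 6.58% and 6.06% to 6.60%. None of these rows was called. Of 42 own rows, 25 were tested and 3 had an unadjusted p under 0.05, all lower in KO, against 3.04% of all tested rows. The 3 were Ctsd, Lgmn, for a lysosomal cysteine protease, and Cd68, which is on both lists. The median log2 fold change was -0.17 against 0.01 over all tested rows. Ctsd, the aspartic protease cathepsin D, held 186, 164 and 159 counts in WT and 131, 106 and 62 in KO. Every KO library was below WT, at -0.71 (interval -1.17 to -0.25, adjusted p = 0.441), and at -0.51 without KO M0 library 3 (unadjusted p = 0.0354). Ctsd and Lgmn too were chosen after their values were seen. Of 8 tested rows that lie opposite a lysosome gene, 7 were bounded within 2-fold and 0 were called, with a median of -0.22.

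Scavenging, lipid and redox lists had no called row. For alternative activation and scavenging 7 of 25 rows were tested. Stab1, a scavenger receptor gene, held 1364, 1558 and 1370 CPM in WT and 1382, 1395 and 1445 in KO, and Nt5dc2 opposite it was at -0.01 (interval -0.27 to 0.25). For cholesterol and lipid handling 10 of 31 rows were tested, with a median of -0.17. Apoe, the apolipoprotein that macrophages secrete, held 1767 counts in WT and 1805 in KO in its own row, at 0.09 (interval -0.21 to 0.39). For oxidative stress and redox 13 of 31 rows were tested, with a median of 0.15. Hmox1, the haem oxygenase that works downstream of Cd163 uptake, held 30 counts in WT and 11 in KO, and its unadjusted p was 0.026. Apoe and Hmox1 were chosen for mention after their values were seen.

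Genes of inflammatory programs had few or no counts in their own rows in M0, which gave little to compare. Of 24 classical activation rows 13 were at 0, 10 were tested and 0 were called. Tnf, Il1b and Ptgs2, each a gene of the inflammatory response, held 0 counts in all 6 libraries in their own rows. Gm14023, the row opposite the cytokine gene Il1a, held 124 counts in WT and 111 in KO. Irf5, a transcription factor of inflammatory macrophages, was the highest of that list at 864, 987 and 1034 CPM in WT and 741, 812 and 775 in KO. All KO libraries were lower, at -0.31 (interval -0.54 to -0.07, adjusted p = 0.587), but Irf5 shares exon sequence with Tnpo3 on the other strand. Of 31 type I interferon target rows 16 were at 0, 12 were tested and 0 were called. The chemokine genes Ccl3 and Cxcl16 were at 0.12 (interval -0.29 to 0.53) and -0.08 (interval -0.49 to 0.33).

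G protein, metabolic and growth programs gave 1 called row. Of 28 Gi and G protein signalling rows 6 were tested and 0 called, with a median log2 fold change of 0.23 and no interval within 2-fold. Gm11696, opposite the G protein gene Gna13, was bounded within 1.23-fold, at -0.10 (interval -0.30 to 0.10). In the mitochondrial list 6 of 28 rows were tested and 1 was called, Perm1, which had been put on the list with its result known. Cpt1a, for the enzyme that admits fatty acids to mitochondria, held 102 counts in WT and 140 in KO and was not called, and it was chosen after its values were seen. Of 23 glycolysis and hypoxia rows 12 were tested and 0 called. Of 27 cell cycle rows 5 were tested and 0 called. Ccna2, for cyclin A2, opposite Exosc9, was at -0.10 (interval -0.37 to 0.16). Oraov1, opposite the cyclin gene Ccnd1, held 1875, 1511 and 1926 CPM in WT and 1853, 1010 and 1164 in KO, at -0.40 (interval -0.86 to 0.06). It was called, at -0.74, when KO M0 library 1 was left out.

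Markers of other cells held few counts in both genotypes. In their own rows, 12 of 13 genes of T and NK cells, 8 of 9 of mast cells and basophils, 6 of 8 of B and plasma cells, 6 of 8 of erythroid cells and 8 of 12 of neutrophils held 0 counts in M0. The same held for 7 of 12 stromal and endothelial genes, 5 of 9 of osteoclasts and 4 of 9 of dendritic cells. Summed counts in WT and KO were 0 and 10 for T and NK cells, 18 and 7 for mast cells and basophils, 7 and 28 for B and plasma cells, and 9 and 28 for neutrophils. Dendritic cell markers held 65 and 68, stromal and endothelial 18 and 13, erythroid 27 and 29, and osteoclast 15 and 10. Xcr1, a chemokine receptor gene of dendritic cells, held 42 counts in WT and 33 in KO, about as many as the macrophage gene Adgre1 with 22 and 37. This marker was thus not set apart from that macrophage gene by the counts of its own row. As lists they did differ. The 25 macrophage identity rows held 1617 counts in WT and 1463 in KO, and 0 of them were at 0. A 0 in an own row is a weak limit. Xcr1 was chosen after its values were seen.

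Rows around the targeted gene were looked at by position. Within 5 Mb of Gpr31b on chromosome 17, 6 rows were tested, 0 were called and 0 were without overlap, with log2 fold changes from -0.24 to 0.66. Acat3, an acetyl-CoA acetyltransferase gene opposite the chaperonin gene Tcp1, was at -0.15 (interval -0.33 to 0.04). 4930506C21Rik, opposite the mitochondrial pyruvate carrier gene Mpc1, had an unadjusted p of 0.017 at -0.24 (interval -0.44 to -0.05). Both were chosen for mention after their values were seen.

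The genotype effect in M0 was set against that in M1 by the interaction of the same model. The model took M0 and M1 libraries as unpaired, which the labels do not settle. A block pairing those of the same genotype and number, added after seeing the data, made the interaction call 3 rows. Unpaired, it called 0 rows by edgeR's quasi-likelihood test, with 144 rows (6.17%) at an unadjusted p under 0.05. The effect in M1 alone also called 0 rows, with 164 (7.03%) at an unadjusted p under 0.05. Of the 278 rows without overlap in M0, 16 were also without overlap in M1 in the same direction and 10 in the opposite one. Rows without overlap in M1 were 252 of the 2333 tested (10.8%), 139 higher in KO (5.96%) and 113 lower (4.84%).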

How the data were processed

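Per the labels' protocols, strand-specific TruSeq libraries of polyadenylated RNA were run on a NovaSeq sequencer. The authors deposited raw counts, whole numbers for each gene symbol in each library. Per the submitters' processing notes, the mm10 build was used with HTSeq, Trimmomatic, FastQC and DESeq2, versions unstated. Aligner, annotation and the strand option of HTSeq are not given in the sources used here.

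Rows were matched to GENCODE M21 or RefSeq by name: 24094 matched 1 GENCODE gene, and 26 names had become dates (0.0087% of M0 counts). Opposite-strand exons count from 20 shared bases. Rows kept by filterByExpr were fitted with edgeR 4.0.16 (R 4.3.3) as a robust quasi-likelihood model with TMM factors on all 12 libraries and 4 groups, with Benjamini-Hochberg adjustment at 0.05. The 95% intervals come from the fold change and F statistic. Rows at 0 in an M0 group have none. Of counts from 1 to 12, 59.6% were even, so counts may not be independent, and intervals and limits cover counting error and library spread only.

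The comparison, the 27 gene lists and the tests were chosen with earlier results of these data known. Named rows are Gpr31b, called rows, the 20 highest, the 5 of lowest p per direction at 5 CPM or more, the 5 narrowest intervals, up to 2 rows per list, own and opposite, and a fixed set of marker, lipid pathway and cytokine genes. Genes named outside this rule are said to be so where they appear. Of the 20 highest rows, 2 are counted but not reported here by name. A minimum of 100 CPM for list rows was added after values were seen. Other settings were DESeq2's size factors, library size alone, DESeq2, limma-voom, other filters, M0 libraries alone, a block by library number and leaving out each library.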

Additional observations from a re-analysis of the deposited data

Results flagged for a closer look

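In 2 named rows the genotypes did not overlap in either state, and the direction in M0 was opposite to that in M1. Over all 2333 tested rows 10 did so. Other named rows changed sign with overlap in M0 or M1. Among them were Pltp, at -0.22 in M0 and 0.15 in M1, and Psd, at 0.37 and -0.23. The 0610040F04Rik row, opposite Bhlhe40, a transcription factor gene of macrophage activation, held 259, 202 and 347 CPM in WT M0 and 192, 99.2 and 185 in KO M0, a log2 fold change of -0.76. In M1 the means were 349.9 CPM in WT and 564 in KO, a change of 0.69. The difference between the states was 1.45 on the log2 scale (edgeR, unadjusted p = 5.2e-05, adjusted p = 0.122), which was not called among 2333 rows. It was called in 6 other settings, with an adjusted p of 0.0238 under a term for the libraries that carry Tsix. The Ddb2 row, opposite Acp2, was at 0.073 in M0 and -0.21 in M1, with an unadjusted p of 0.018 for the difference between the states and an adjusted p of 0.627.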

How the results depend on the processing

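The count of 1 called row rested on the settings. It was 1 with DESeq2's size factors, 4 without a filter (Perm1, Gm15441, Tctn1 and Cd163), and 0 with library size alone, DESeq2, limma-voom, a mean of 20 counts or more, the 6 M0 libraries only, no robust estimation and a replicate block. It was 0 to 2 when 1 library was left out. The 2 were Gm15441 and Oraov1, without KO M0 replicate 1. In those settings 118 to 193 rows reached an unadjusted p under 0.05, apart from 369 without a filter and 101 at a mean of 20 counts or more. 2 settings were chosen after seeing the data, a term for the libraries that carry Tsix and leaving out the 2 such M0 libraries, and both called 0 rows, with 168 and 122 at an unadjusted p under 0.05. Perm1 stayed between 0.64 and 0.85 on the log2 scale in all 17 settings.

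Rows without overlap, 278 as reported, were 656 without a filter, 175 at a mean of 20 counts or more, 817 without the 2 Tsix libraries and 525 to 598 with 1 library left out, where fewer libraries make overlap rarer. The interaction called 3 rows without a filter (0610040F04Rik, Fyco1 and Sphk2), 1 with the Tsix term (0610040F04Rik) and 0 to 3 with 1 library left out. These were 0610040F04Rik alone without WT M0 replicate 2 or KO M0 replicate 3, and 0610040F04Rik, Mir6381 and Psd without KO M0 replicate 1. The share of rows at 100 CPM or more bounded within 2-fold ran from 87.1% to 96.4%. Same-numbered libraries of the 2 genotypes deviated together at r of -0.015, 0.173 and 0.037. The main model did not take the numbers as pairs across genotypes. These low r values do not decide that, since counting error lowers r. The replicate block by number called 0 rows and gave Perm1 an adjusted p of 0.0774 by edgeR's quasi-likelihood test. M0 and M1 libraries of 1 genotype and number may share a source, since the Tsix counts follow the number, and the labels do not say. They deviated together at r of 0.041 to 0.120. Counting error lowers r where most rows have few counts, so these values do not decide whether the libraries are pairs. The main model took them as unpaired. A replicate block pairing them, added after seeing the data, made the interaction call 3 rows (0610040F04Rik, Gm16712 and Sphk2, each with an adjusted p of 0.0248).

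Rows near no difference changed sign, none of them called, and the cause was not tested. Without the 2 Tsix libraries the log2 fold change was -0.11 for Fdft1, -0.070 for 3110062M04Rik, -0.13 for Map3k12, -0.28 for Lyz2, 0.0078 for Stab1, -0.0079 for Ccdc152, -0.056 for Ccl3, -0.11 for Tapbp, -0.17 for Txnrd2, 0.077 for Emg1 and 0.035 for Ccnd1. With library size alone it was 0.0026 for Nt5dc2. With 1 library left out it ran from -0.088 to 0.015 for Fdft1, -0.057 to 0.040 for 3110062M04Rik, -0.088 to 0.068 for Map3k12, -0.20 to 0.34 for Lyz2, -0.40 to 0.033 for Mpeg1, -0.19 to 0.040 for Nt5dc2 and -0.012 to 0.20 for Ccdc152. It ran from -0.10 to 0.22 for Tapbp, -0.034 to 0.37 for Nfkb2, -0.21 to 0.18 for Txnrd2, -0.25 to 0.073 for Ccnd1, -0.45 to 0.047 for Exosc9, -0.38 to 0.28 for Itga4, -0.071 to 0.056 for Trpt1 and -0.69 to 0.29 for Cd14. At these depths a 2-fold effect could be bounded for few rows under 100 CPM.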

Other observations

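At 100 CPM or more, 4 of 859 rows had an interval reaching past 3-fold, and in each the spread lay between libraries of the same genotype. Tsix is described above. The Nt5c3b row, opposite Fkbp10, a collagen chaperone gene, held 134, 9 and 109 counts in WT M0 and 81, 8 and 17 in KO M0. D030025P21Rik, opposite Ltbp2, an extracellular matrix gene, held 165, 17 and 147 counts in WT M0 and 102, 22 and 54 in KO M0. Both rows were low in library 2 of each genotype and, next to that, in KO M0 library 3. D630041G03Rik, opposite Eps8l1, held 86, 120 and 45 counts in WT M0 and 52, 71 and 2 in KO M0, and was thus highest in library 2 and lowest in KO M0 library 3. In M1 the library 2 values were 8 counts in WT and 1 in KO for Nt5c3b, and 49 and 18 for D630041G03Rik. These rows were picked for their wide intervals, and what sets the libraries apart was not tested.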
